A study of Arabidopsis thaliana with 48 samples.

Results

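The heat response of the cytoplasmic fraction of tho5ab was measured by comparing 6 libraries from plants held at 37 °C for 3 h with 6 libraries from plants kept at 21 °C, so that 12 of the 48 libraries of the series are compared here across all 27420 genes of the count table. Arabidopsis thaliana plants were 14 d old, their rosettes were separated into nuclear and cytoplasmic fractions by centrifugation, and heated plants were harvested with no recovery. The genotype tho5ab is mutated in THO5A and THO5B, the genes for subunit 5 of THO, and both temperature groups carry it. The wild type in the same background, Col-0, was treated in the same way and is used below for comparison only, and the series as a whole asks about mRNA export in tho5ab under heat. The labels give neither the alleles nor the number of plants in a library nor the hour of harvest. Nothing in them says that replicates came from separate cultures, so p-values measure the spread between libraries.

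Heat unfolds proteins, and plant cells answer by making chaperones. Small heat shock proteins hold unfolded proteins in a soluble state, HSP70 and HSP90 refold them with their co-chaperones, and HSP101 pulls proteins out of aggregates. Heat shock factors (HSFs) bind heat shock elements, inverted repeats of GAA, in the promoters of these genes. THO assembles on nascent mRNA and hands it to export adaptors, so the mRNA in the cytoplasm is what has been made, exported and not yet degraded.

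Total counts ran from 1025185 to 2043100 per library at 21 °C and from 1147881 to 2091811 at 37 °C, and 14665 to 17678 genes were detected per library. Replicate 7 stood somewhat apart at both temperatures, with the most genes detected in its group and the largest TMM scaling factor, 1.302 at 21 °C and 1.108 at 37 °C. Nested genes, whose host lies on the opposite strand, had unusually many counts in 3 of the 6 libraries at 21 °C (replicates 1, 4 and 6) and in 1 of 6 at 37 °C (replicate 5), and with a term for these libraries in the fit 3364 genes responded to heat instead of 3696. Genes that overlap another gene on either strand or have a near-identical copy are called uncertain below. Levels are CPM, the usual scaling of counts to library size, here with TMM-adjusted totals, and 3 values in a row are the lowest, the median and the highest of the 6 libraries. A CPM is a share of a library, and in whole rosettes fewer cells of a type and less RNA per cell cannot be told apart.

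The mutated genes were checked first. THO5B had 0 counts in all 12 libraries, against 1.24 to 8.68 CPM in Col-0 cytoplasm at 21 °C and 1.39 to 7.49 CPM at 37 °C. THO5A was still counted, at 4.35, 11 and 23.7 CPM at 21 °C and 1.06, 2.65 and 20.9 CPM at 37 °C, and its groups overlapped. Its log2 fold change with heat was -0.82 (SE 0.58, adjusted p = 0.27), and -1.58 (adjusted p = 0.0459) without replicate 7. Where counted reads lie relative to the mutation was not analysed here.

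Heat moved a large part of the cytoplasmic transcriptome of tho5ab. Of 9512 genes with enough counts to test, 3696 (38.9%) passed an adjusted p of 0.05, of which 1782 (18.7%) were higher and 1914 (20.12%) lower at 37 °C. The first principal component, which separated the temperatures, held 68.1% of the variance. Among all tested genes 158 (1.66%) were called and at least 8 times higher, and 67 (0.704%) were called and at least 8 times lower. The 6 and 6 libraries did not overlap for 1881 genes (19.8%). The median log2 fold change over all tested genes was -0.02. The split between higher and lower depends on the scaling: relative to unscaled library totals, 896 genes were higher and 3207 lower, and the median of all genes was -0.44. Without replicate 7, 3305 genes passed, and with only the 8 libraries free of the opposite-strand counts 2715 did.

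Small heat shock proteins showed the largest changes of any list. Of 19 members 18 were tested, 17 rose, none fell, and the median log2 fold change was 12.95, or 12.56 with the 3 members that had 0 counts at 21 °C placed at their lower bound. Of all tested genes 18.7% rose and 20.12% fell, and their median was -0.02. HSP17.6II (AT5G12020, chr5:3882231-3883111 on the minus strand, no intron), a cytosolic class II protein, was not counted in any library at 21 °C and lay at 6147, 6357 and 7474 CPM at 37 °C, which is at least 19630-fold higher. HSP17.6A (AT5G12030, chr5:3883957-3884838), its neighbour on the same strand, also had 0 counts at 21 °C and reached 5415, 5863 and 8189 CPM, at least 18790-fold higher. HSP22.0, which is made for the endoplasmic reticulum, went from 0 counts to 1227, 1737 and 2275 CPM, at least 5254-fold higher.

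HSP21 (chr4:13818825-13819971, minus strand), the chloroplast small heat shock protein, had 2 counts at 21 °C, in 1 library, and 2867, 4992 and 5971 CPM at 37 °C, a ratio of 18410 with a counting interval of 5097 to 152000. HSP23.6-MITO, which acts in mitochondria, had 0, 0 and 1.64 CPM at 21 °C and 9723, 14196 and 15006 CPM at 37 °C, a log2 fold change of 14.64 (SE 0.42, adjusted p = 1.2e-20). HSP17.4 (uncertain, since it overlaps a gene on the opposite strand), a cytosolic class I protein, had 0, 1.42 and 13.9 CPM at 21 °C and 31127, 40112 and 44378 CPM at 37 °C. The class I gene HSP18.2 had 0.762, 2.52 and 4.92 CPM and then 21929.8, 23521 and 26649.5 CPM, a log2 fold change of 13.13 (SE 0.35, adjusted p = 4.3e-21). In none of these did the groups overlap, and the lowest heated library lay at more than 1000 CPM in each.

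Genes annotated only as HSP20-like chaperones reached the same levels. AT1G53540 rose from 0, 2.175 and 8.68 CPM to 27643, 37515 and 43001 CPM, and AT1G07400 from 0, 3.64 and 9.21 CPM to 24031, 33826 and 35608 CPM. AT2G29500 reached 14909, 17012 and 20689.6 CPM. Not every family member took part to this extent. AT4G21870 rose by 1.55 (SE 0.38, adjusted p = 0.002) on the log2 scale with overlapping groups, from 4.57, 9.99 and 14.8 CPM to 12.6, 29.8 and 49 CPM. AT5G54660 did not pass the test, with 4.73, 7.57 and 14.5 CPM at 21 °C, 4.32, 6.91 and 15.6 CPM at 37 °C and a log2 fold change of -0.02 (SE 0.48, adjusted p = 0.97). AT5G47600 was at or near 0 at both temperatures and was not tested.

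Of 24 HSP70, HSP90 and HSP100 genes 23 were tested, 22 rose and none fell, with a median log2 fold change of 3.32. The shares over all tested genes were 18.7% higher and 20.12% lower. The heat-inducible members are given first. HSP101 (uncertain, opposite-strand overlap) rose from 6.23, 12.3 and 22.9 CPM to 18508, 26176 and 29776 CPM, a log2 fold change of 10.95 (SE 0.33, adjusted p = 3.4e-20). HSP90.1, the heat-inducible cytosolic HSP90, rose from 27.9, 31.9 and 49.7 CPM to 22805, 38088 and 46160.5 CPM, a log2 fold change of 10.09 (SE 0.28, adjusted p = 1.1e-20). Heat took HSP70B from 0.779, 4.02 and 11.3 to 6554, 10049 and 11967 CPM. HSP70 (AT3G12580) went from 77.8, 97.7 and 107 to 16317, 27915 and 31116 CPM, a log2 fold change of 8.11 (SE 0.24, adjusted p = 3.4e-20). In HSP70B, HSP70, HSP90.1 and HSP101 alike, replicate 7 was the lowest of the heated libraries, and the groups did not overlap.

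**Figure D1:**
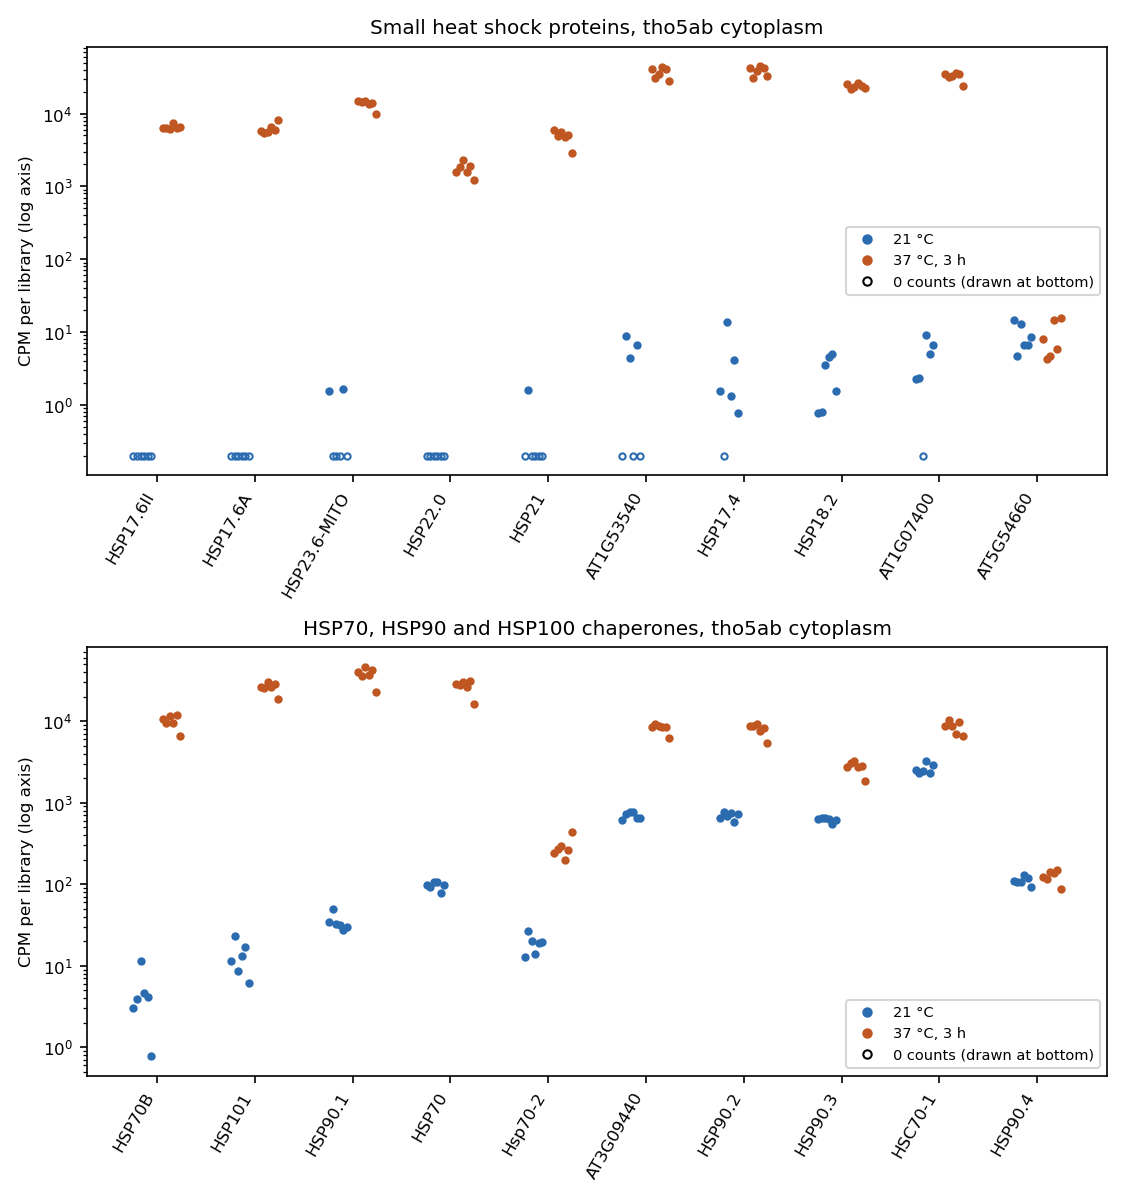
CPM per library on a log axis for 10 small heat shock proteins (top) and 10 HSP70, HSP90 and HSP100 genes (bottom) in tho5ab cytoplasm, at 21 °C (blue) and after 3 h at 37 °C (orange), with replicates 1, 2, 4, 5, 6 and 7 from left to right. Open circles are libraries with 0 counts, drawn at the bottom since a log axis has no 0, and the groups overlap only for AT5G54660 and HSP90.4.

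Cytosolic members known as constitutive followed. HSC70-1, the main housekeeping HSP70, rose from 2331, 2478 and 3259 to 6547, 8726 and 10204 CPM, a log2 fold change of 1.69 (SE 0.17, adjusted p = 1.1e-08). HSP90.2 changed by 3.53 (SE 0.18, adjusted p = 7.1e-15) on the log2 scale and HSP90.3 by 2.14 (SE 0.17, adjusted p = 5.4e-11), and neither had overlapping groups. HSP90.4 did not pass the test, with 91.5, 108 and 131 CPM at 21 °C and 86.6, 130.1 and 151 CPM at 37 °C, a log2 fold change of 0.18 (SE 0.17, adjusted p = 0.42).

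Organelle chaperones rose as well, over a wide range. In mitochondria CLPB4, the disaggregase, rose by 4.48 (SE 0.20, adjusted p = 3.6e-16) on the log2 scale and MTHSC70-2 by 4.15 (SE 0.19, adjusted p = 2.5e-16), from 113, 165 and 174 to 2181, 2725 and 3219.7 CPM, while MTHSC70-1 rose by 0.64 (SE 0.17, adjusted p = 0.0032). In chloroplasts CLPB3 (uncertain, opposite-strand overlap) rose by 4.65 (SE 0.23, adjusted p = 1.9e-15), HSP90.5 by 1.65 (SE 0.18, adjusted p = 4.6e-08) and cpHSC70-2 (uncertain) by 0.54 (SE 0.18, adjusted p = 0.016). SHD, the HSP90 of the endoplasmic reticulum, rose from 28.3, 44.7 and 71.3 to 146, 237 and 260.4 CPM.

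Co-chaperones and other known heat response genes were a mixed list: 17 of 22 rose and none fell, with a median log2 fold change of 3.10. Over all tested genes 18.7% rose and 20.12% fell. APX2, a cytosolic ascorbate peroxidase that removes hydrogen peroxide, went from 0 counts to 207, 253 and 378 CPM, which is at least 826.6-fold higher. Such bounds set the group without counts at 3 counts in all. ROF2, an immunophilin that binds HSP90, rose from 3.05, 4.51 and 9.01 to 10429, 11592 and 12455 CPM, a log2 fold change of 11.02 (SE 0.29, adjusted p = 4.3e-21). MBF1C (uncertain, opposite-strand overlap), a transcriptional co-activator of thermotolerance, rose from 16.4, 23.57 and 38.6 to 4537, 5220.2 and 6279.9 CPM. HSA32, which prolongs acquired thermotolerance, rose from 0, 0.39 and 4.92 to 166, 199 and 215 CPM and is uncertain. BAG6, a calmodulin-binding co-chaperone, had 0, 5.03 and 15.2 and then 743, 929 and 1397 CPM.

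Paralogs in this list gave different calls. Of the HOP genes, which link HSP70 to HSP90, HOP3 (uncertain) rose by 7.81 (SE 0.40, adjusted p = 4.7e-15) on the log2 scale and HOP2 (uncertain) by 1.60 (SE 0.16, adjusted p = 6.7e-09), whereas HOP1 had 83.6, 104 and 126 CPM at 21 °C and 78.3, 98.4 and 101 CPM at 37 °C and did not pass the test (log2 fold change -0.14, SE 0.17, adjusted p = 0.53). The difference between HOP genes was not tested. The J proteins J3 and J2 (uncertain) rose by 2.16 and 1.61 on the log2 scale. The polyubiquitin genes UBQ10 and UBQ11 gave log2 fold changes of 0.28 (SE 0.16, adjusted p = 0.16) and -0.31 (SE 0.16, adjusted p = 0.13).

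Of 21 heat shock factors 13 had enough counts to test, 7 rose, 1 fell and the median was 3.01. Beside these stand 18.7% of all tested genes that rose and 20.12% that fell. HSFA2, the factor that maintains the heat response, had 2 counts at 21 °C, in 1 library, and 410.2, 450.1 and 717 CPM at 37 °C, a ratio of 2338 with a counting interval of 647.1 to 19300. HSFA3 (uncertain), a target of DREB2A, rose from 0.789, 4.1 and 8.38 to 183, 305 and 509 CPM. HSFA7B had 3 counts at 21 °C, in 1 library, and 37.8, 41.1 and 84.1 CPM at 37 °C, a ratio of 115.0 with a counting interval of 39.35 to 557.6. HSFA7A rose from 0, 1.78 and 10.7 to 69.6, 81.6 and 118 CPM, and the class B factors HSFB1, HSFB2A and HSFB2B (the last uncertain) rose by 3.85, 3.01 and 4.12 on the log2 scale. The level of HSFB1 at 37 °C ran from 145 to 230.0 CPM.

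The HSFA1 factors, which start the heat response from protein already present, gave no call. HSFA1D had 3.28, 13.9 and 22.6 CPM at 21 °C and 1.06, 18.7 and 29.2 CPM at 37 °C, a log2 fold change of 0.34 (SE 0.46, adjusted p = 0.58), HSFA1B (uncertain) gave -0.50 (SE 0.40, adjusted p = 0.33), and HSFA1A and HSFA1E were not tested. HSFC1 (uncertain) was the factor that fell, from 34.2, 47.3 and 91.5 to 7.29, 15.44 and 23.3 CPM, a log2 fold change of -1.77 (SE 0.31, adjusted p = 4.6e-05).

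Heat shock elements were looked for in the promoters of all genes, as 3 alternating units of GAA and TTC with any 2 bases between units, beginning with either unit so that both strands are covered, in 250 bases before to 50 after the annotated start. They occurred in 132 of 27420 promoters (0.481%), in 1.96% of those of genes that rose, in 0.261% of those that fell and in 16 of the 158 (10.1%) of genes called and at least 8 times higher. The shorter motif GAANNTTC, which both contain, was in 11.6% of all promoters and in 26.6% of those 158. A match is a match of letters only. Of the 19 small heat shock genes 2 held the element of 3 units in this window, AT1G53540 and HSP17.4. Among the 16 genes, the only element lay after the start in AT1G03070, HSP70, HOP3, AtCDC48B, SR45A, ELIP1, AT3G53830 and AT3G09440. Among genes given by the naming rule and with such a match before the start, the 4 with the highest log2 fold change are shown (GolS1, at 7.47, is outside that rule), from base 200 to base 1 before the start, 5′ to 3′ on the gene's strand, with the element in capitals (RefSeq, assembly TAIR10.1). They cover chr1:19980099-19980298 on the plus strand (AT1G53540), chr3:16984868-16985067 on the minus strand (HSP17.4), chr2:11135424-11135623 on the plus strand (HSFA2) and chr3:23399036-23399235 on the plus strand (HSFA7B).
AT1G53540: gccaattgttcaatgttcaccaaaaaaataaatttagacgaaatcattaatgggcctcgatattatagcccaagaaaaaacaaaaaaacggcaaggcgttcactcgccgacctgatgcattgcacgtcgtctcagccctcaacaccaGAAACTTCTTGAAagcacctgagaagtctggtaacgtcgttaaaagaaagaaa
HSP17.4: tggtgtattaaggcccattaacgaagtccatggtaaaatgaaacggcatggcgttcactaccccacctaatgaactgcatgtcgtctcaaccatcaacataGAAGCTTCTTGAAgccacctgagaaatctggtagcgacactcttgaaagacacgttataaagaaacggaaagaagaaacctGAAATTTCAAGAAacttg
HSFA2: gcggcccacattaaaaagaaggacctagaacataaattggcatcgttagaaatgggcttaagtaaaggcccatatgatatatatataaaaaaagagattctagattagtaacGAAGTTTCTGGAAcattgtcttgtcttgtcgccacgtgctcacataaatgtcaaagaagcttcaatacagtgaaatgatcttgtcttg
HSFA7B: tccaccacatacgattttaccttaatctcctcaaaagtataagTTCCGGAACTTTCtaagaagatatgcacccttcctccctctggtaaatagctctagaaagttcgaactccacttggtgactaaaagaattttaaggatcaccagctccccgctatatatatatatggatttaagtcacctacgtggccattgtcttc
The element nearest the start ended 40 bases before it in AT1G53540, 5 in HSP17.4, which held 2 elements, 75 in HSFA2 and 144 in HSFA7B. HSP17.6II and HSP17.6A, at the top of the list, were not among the 16.

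The unfolded protein response, by which the endoplasmic reticulum raises its own chaperones, was also represented: of 19 genes 14 were tested, 8 rose, none fell and the median was 1.71. For comparison, 18.7% of all tested genes rose and 20.12% fell. BIP2 and BIP1 (both uncertain as near-identical copies), the HSP70s of the endoplasmic reticulum, rose from 31.9, 52.3 and 101 to 462, 719.6 and 1290.0 CPM and from 30.9, 82.7 and 128 to 416, 535 and 722 CPM. CNX1, the membrane lectin chaperone calnexin, rose from 27, 55.7 and 87 to 211, 367 and 409 CPM, a log2 fold change of 2.59 (SE 0.23, adjusted p = 5.3e-10), and the calreticulin gene CRT1B rose by 2.09 (SE 0.21, adjusted p = 6.3e-09). BZIP28, a membrane-bound factor released by stress in the endoplasmic reticulum, rose from 3.16, 9.02 and 13.7 to 30.6, 64.9 and 84.8 CPM. BZIP60, whose mRNA the sensor IRE1 splices, had 27.8, 30.6 and 46.5 CPM at 21 °C and 31.1, 51.8 and 74.2 CPM at 37 °C (log2 fold change 0.57, SE 0.24, adjusted p = 0.06), and IRE1A gave 1.01 (SE 0.48, adjusted p = 0.094).

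**Figure D2:**
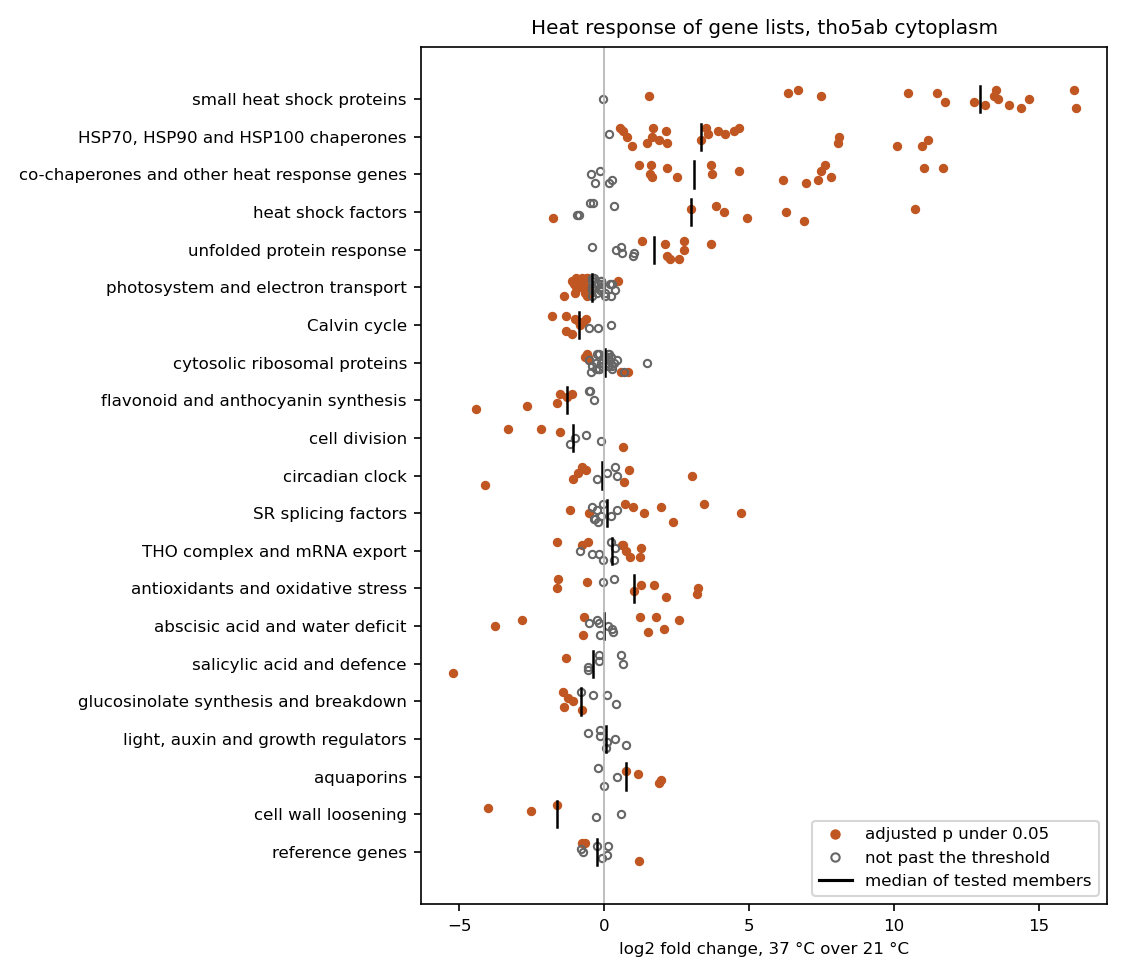
Log2 fold change (37 °C over 21 °C) of every tested member of 21 gene lists in tho5ab cytoplasm. Filled points passed an adjusted p of 0.05, open points did not, and the bar is the median of the tested members, from 12.95 for small heat shock proteins to -1.62 for cell wall loosening.

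Several lists had no member called by edgeR in 1 of the directions. At an unadjusted p under 0.05 these lists held 1 co-chaperone gene that was lower, 1 glucosinolate gene that was higher and 1 cell wall gene that was higher, and 0 in the others. With DESeq2 1 cell wall gene was higher and 0 passed in the others.

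Chaperone mRNA took up a large share of the heated cytoplasm. Small heat shock proteins held 0.00528%, 0.00863% and 0.00985% of library counts at 21 °C and 14.2%, 16.9% and 18.3% at 37 °C. The HSP70, HSP90 and HSP100 genes held 0.710%, 0.749% and 0.849% at 21 °C and 9.96%, 11.5% and 12.7% at 37 °C. The 100 most abundant genes of each library held 44.8% ± 2.69 (SD, n = 6) at 21 °C and 56.6% ± 3.46 at 37 °C, and here replicate 7 was low at 37 °C, at 49.6% against at least 57.3% in the others. In each of these 3 measures the groups did not overlap, and a two-sided exact permutation test gave p = 0.00216, the smallest that 6 against 6 allows (adjusted over 7 shares, 0.00303).

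**Figure D3:**
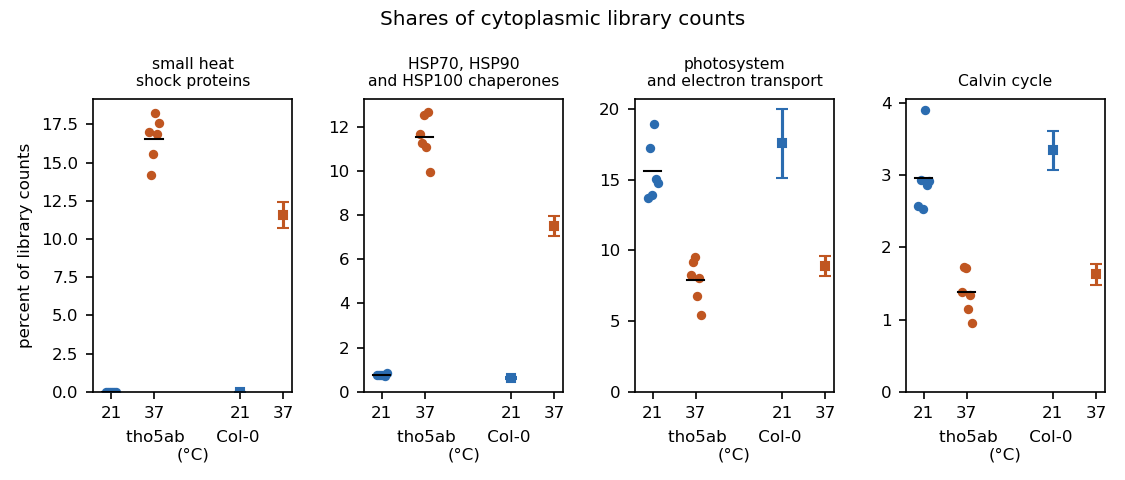
Percent of library counts held by 4 gene lists. Points are the 6 tho5ab libraries at 21 °C (blue) and 37 °C (orange) with their mean as a bar, squares are the mean ± SD of 6 Col-0 cytoplasmic libraries, and small heat shock proteins reach 14.2% to 18.3% in heated tho5ab.

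The genes at the top of the transcriptome changed accordingly. At 21 °C the 10 genes with the highest mean were RR3, LHCB1.3, LHB1B2 and further genes of photosynthesis, with AT1G54410. At 37 °C they were RR3, the small heat shock genes HSP17.4, AT1G53540, AT1G07400, HSP18.2 and AT2G29500, the chaperones HSP90.1, HSP101 and HSP70, and AT3G10020. RR3 (AT2G41310), a cytokinin response regulator, held 81569, 114307 and 121040.0 CPM at 21 °C and 54269.5, 112746 and 148253 CPM at 37 °C, with overlapping groups. Relative to unscaled totals it was lower (-0.47, adjusted p = 0.00559). Its span holds a noncoding gene on the opposite strand, so its reads may belong to either. AT3G10020 rose from 265, 333 and 389 to 13344, 20732 and 22241 CPM, a log2 fold change of 5.86 (SE 0.21, adjusted p = 2.2e-18). AT1G54410, a dehydrin, fell from 4592, 6751 and 7482 to 1324, 1439.8 and 1598 CPM, a log2 fold change of -2.17 (SE 0.17, adjusted p = 5.3e-11).

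Photosynthesis transcripts were lower in share, and unevenly so by gene. Of 37 photosystem and electron transport genes 16 fell and 1 rose (median -0.42), and of 12 Calvin cycle genes 9 fell and none rose (median -0.86). For comparison, 20.12% of all tested genes fell and 18.7% rose. Without replicate 5, and likewise with only the libraries free of high opposite-strand counts, 10 of the 37 fell. Relative to unscaled totals 31 did. The photosystem genes held 13.7% to 18.9% of counts at 21 °C and 5.42% to 9.53% at 37 °C, and the Calvin cycle genes 2.54% to 3.91% and 0.957% to 1.73%, each with exact permutation p = 0.00216. The share of counts is not scaled by TMM and falls where other genes rise.

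LHCB1.3 (uncertain), a chlorophyll-binding antenna protein of photosystem II, fell from 28294, 32417 and 54713 to 5875, 15114 and 19729 CPM, a log2 fold change of -1.38 (SE 0.24, adjusted p = 4.5e-05). PSAN (uncertain), a subunit of photosystem I, fell from 496, 602 and 699 to 183, 306 and 329 CPM. LHCA1 fell by 0.77 (SE 0.20, adjusted p = 0.0034) on the log2 scale. LHCA3 and LHCA2 (uncertain), of the same gene family, gave -0.12 (SE 0.21, adjusted p = 0.69) and -0.42 (SE 0.21, adjusted p = 0.12). PSBR (uncertain), of photosystem II, was the member called higher, at 0.49 (SE 0.17, adjusted p = 0.027) with overlapping groups. It did not pass without replicate 1, 2, 4 or 6 (adjusted p 0.0863, 0.104, 0.0997 and 0.0740), nor relative to unscaled totals (0.03, adjusted p = 0.851). In the libraries free of high opposite-strand counts it did not pass either (adjusted p = 0.155).

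In the Calvin cycle PRK (uncertain), phosphoribulokinase, fell from 1304, 1632 and 2220.3 to 233, 504 and 677 CPM, a log2 fold change of -1.81 (SE 0.21, adjusted p = 9.4e-08). The glyceraldehyde phosphate dehydrogenase genes GAPA and GAPB fell, with log2 fold changes of -1.33 (SE 0.22, adjusted p = 2.4e-05) and -1.11 (SE 0.21, adjusted p = 0.00011), and GAPA is uncertain. Of the Rubisco small subunit genes RBCS1A fell from 4830.2, 5425 and 11979 to 1758, 2403 and 3892 CPM (-1.31 on the log2 scale), with replicate 5 the highest at 21 °C, while RBCS3B (uncertain) had 3073, 3347 and 5560.0 CPM and then 2572, 4360.2 and 6450.4 CPM (0.25, SE 0.21, adjusted p = 0.35). Rubisco activase, RCA (uncertain), gave -0.51 (SE 0.21, adjusted p = 0.061). It passed without replicate 7 (-0.40, adjusted p = 0.0287), with a replicate block (-0.57, adjusted p = 0.0298), with a term for high opposite-strand counts (-0.59, adjusted p = 0.0402), in the fit of 24 libraries (-0.47, adjusted p = 0.033) and relative to unscaled totals (-0.97, adjusted p = 1.97e-05).

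The 4 mesophyll markers, which include RBCS1A, LHCB1.3 and CAB3, summed to 39652 to 78098 CPM at 21 °C and 9961 to 29525.0 CPM at 37 °C. CA1 (uncertain), a carbonic anhydrase and the marker outside the lists of photosynthesis, had 1511, 2391 and 3055 CPM and then 875, 2305 and 2694 CPM (-0.20, SE 0.22, adjusted p = 0.49). Guard cell markers summed to 35.8 to 84.6 CPM at 21 °C and 33.8 to 79.2 CPM at 37 °C, epidermis and trichome markers to 89.6 to 141 and 83.6 to 117 CPM, and root markers to 36.0 to 65.2 and 23.8 to 74.2 CPM. Of the guard cell markers FAMA, a transcription factor, was called lower (-1.20, SE 0.43, adjusted p = 0.028), but not with a replicate block (adjusted p = 0.0569) or without replicate 1 or 4. Nor was it called with a term for high opposite-strand counts (-0.60, adjusted p = 0.32) or in the libraries free of them (-0.14, adjusted p = 0.888). Of the epidermis and trichome markers GL2 (uncertain), a homeodomain factor, fell by 1.57 (SE 0.39, adjusted p = 0.0022). Phloem markers summed to 49.2 to 104 and 26.4 to 45.8 CPM. Of these SUC2, the sucrose transporter of companion cells, fell from 21.8, 60.4 and 66.3 to 1.76, 6.1 and 10.8 CPM (-3.03, SE 0.36, adjusted p = 1.5e-07), and SEOR1, of sieve elements, fell from 11.5, 15.8 and 36.5 to 2.16, 8.34 and 10.6 CPM (adjusted p = 0.0064). SEOR1 did not pass in the libraries free of high opposite-strand counts (-1.47, adjusted p = 0.0507). APL, a transcription factor of phloem identity, rose from 4.92, 11.9 and 16.7 to 16.4, 26.52 and 30.7 CPM (adjusted p = 0.013) with overlapping groups, and did not pass without replicate 5 (adjusted p = 0.0512), relative to unscaled totals (adjusted p = 0.149) or in the libraries free of high opposite-strand counts (adjusted p = 0.141). The 3 shoot meristem markers had too few counts to test and summed to 3.51 to 11.3 CPM at 21 °C and 0 to 4.64 CPM at 37 °C. Of these WUS and CLV3 were at 0 in all 12 libraries, so the counts were those of STM. The part of a change in cell types in the results was not tested.

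The named genes with the lowest log2 fold changes came from many functions. ACD6, an ankyrin membrane protein that promotes salicylic acid defence, fell from 14.5, 36.4 and 114 to 0, 0.293 and 4.38 CPM, a log2 fold change of -5.22 (SE 0.61, adjusted p = 9.5e-08), and replicate 7 was the highest at both temperatures. NUDT8, a Nudix hydrolase, fell from 51.8, 71.7 and 149 to 0.973, 2.76 and 9.27 CPM. ELF4, a member of the evening complex of the circadian clock, fell from 17.35, 27.2 and 37.4 to 0, 0.83 and 4.32 CPM, a log2 fold change of -4.10 (SE 0.54, adjusted p = 8.1e-07). The chromatin protein HMGB2 fell from 415, 467 and 506 to 24.4, 34.7 and 48.4 CPM, a log2 fold change of -3.70 (SE 0.19, adjusted p = 5.4e-15), and 3xHMG-box1 (uncertain), a mitotic relative, fell by 3.58 (SE 0.66, adjusted p = 0.0001). EXPA8, an expansin that loosens cell walls, fell from 22.9, 31.6 and 54.4 to 0, 0.6245 and 9.29 CPM.

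The cold-regulated neighbours COR15A (AT2G42540, chr2:17710441-17712330) and COR15B (AT2G42530, chr2:17708593-17710433, uncertain), which protect chloroplast membranes in the cold, both fell. COR15A went from 405, 902 and 1093 to 31.6, 61.3 and 111 CPM, a log2 fold change of -3.77 (SE 0.29, adjusted p = 2.9e-11), and COR15B from 234, 306 and 368 to 10.7, 20.5 and 58.3 CPM. The remaining genes of the lowest 15 were PRP1, TCL2, BGLU21, MBP1, RABA4C (uncertain), bHLH071 and IGMT4, with log2 fold changes between -4.50 and -3.50. The naming rule took genes whose groups did not overlap.

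**Figure D4:**
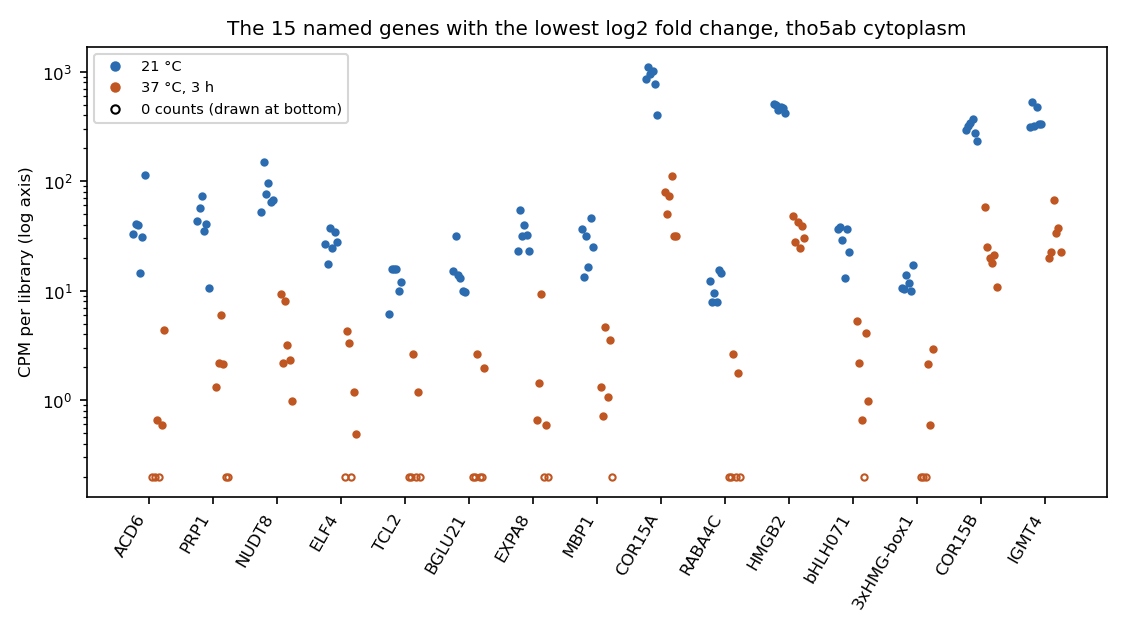
CPM per library on a log axis for the 15 named genes with the lowest log2 fold change in tho5ab cytoplasm, at 21 °C (blue) and 37 °C (orange), with replicates 1, 2, 4, 5, 6 and 7 from left to right. Open circles are libraries with 0 counts, and the naming rule took genes whose 6 heated libraries lie below the 6 at 21 °C.

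Genes of abscisic acid and water deficit moved in both directions, with 5 of 16 tested members higher, 4 lower and a median of -0.01, beside 18.7% higher and 20.12% lower among all tested genes. In the libraries free of high opposite-strand counts 3 were higher. The dehydrins COR47 and ERD10 rose from 1816, 2109 and 2722 to 6341, 9144 and 10585 CPM and from 980.0, 1136 and 1457 to 2309, 3228 and 3961 CPM, while ERD14, of the same family, fell by 0.75 (SE 0.16, adjusted p = 0.00062) on the log2 scale. KIN1, a cold-inducible protein, rose by 2.57 (SE 0.29, adjusted p = 7.1e-08). P5CS1 (uncertain), which makes the osmolyte proline, fell from 122, 206 and 226 to 9.24, 28 and 41.6 CPM, a log2 fold change of -2.85 (SE 0.25, adjusted p = 6.7e-10).

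Among genes against oxidative stress 6 of 11 rose and 3 fell (median 1.02), beside 18.7% and 20.12% of all tested genes. The transcription factor ZAT12 rose from 5.92, 10.6 and 17.5 to 72.7, 100.2 and 143 CPM and the alternative oxidase AOX1A from 124, 132 and 169.6 to 267, 338 and 363 CPM. The catalase genes moved in opposite directions. CAT2 (uncertain) rose by 1.73 (SE 0.22, adjusted p = 4.6e-07), from 710.3, 847 and 1177 to 1134, 3187 and 3667 CPM with replicate 7 the lowest at 37 °C, and CAT3 fell by 1.64 (SE 0.18, adjusted p = 2.5e-08), from 2541, 3078 and 4124 to 765, 1026 and 1238 CPM. CAT1 also fell, by 0.59 (SE 0.22, adjusted p = 0.036), and did not pass without replicate 1, 2, 5 or 6 (adjusted p 0.102, 0.0550, 0.242 and 0.0889). Nor did it pass in the fit of 48 libraries (adjusted p = 0.0666) or in the libraries free of high opposite-strand counts (adjusted p = 0.252).

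Members of both lists of secondary metabolism were called lower, beside 20.12% of all tested genes lower and 18.7% higher. In flavonoid and anthocyanin synthesis 6 of 9 tested genes fell and none rose (median -1.30), whereas 1 was higher in the fit of 24 libraries, with no filter and in the libraries free of high opposite-strand counts. PAL1, which opens the phenylpropanoid pathway, fell from 305, 375 and 529 to 117, 153 and 158 CPM, a log2 fold change of -1.51 (SE 0.17, adjusted p = 8.1e-08). LDOX, which makes anthocyanidins, fell from a median of 23.7 to 3.38 CPM, and chalcone synthase, CHS (uncertain), had 249, 393 and 589.8 CPM and then 119.6, 264 and 569 CPM (-0.50, SE 0.27, adjusted p = 0.14). In glucosinolate synthesis and breakdown 5 of 9 fell and none rose (median -0.79). Without replicate 1, 3 fell, and without replicate 7, 1 rose. CYP83B1, of indole glucosinolate synthesis, fell by 1.24 (SE 0.26, adjusted p = 0.00041), and TGG2, a myrosinase, fell by 1.41 (SE 0.34, adjusted p = 0.0018) with overlapping groups.

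Growth and division genes had few counts. Of 8 tested cell division genes 3 fell and 1 rose (median -1.08), and 1 fell without replicate 7. Of all tested genes, to be set beside each list of this paragraph, 20.12% fell and 18.7% rose. HIK, a kinesin of cytokinesis, fell from 5.73, 12.1 and 17.5 to 0, 0.946 and 2.65 CPM (-3.32, SE 0.62, adjusted p = 0.00011). TSO2 (uncertain), a subunit of ribonucleotide reductase, was the member called higher, by 0.65 (SE 0.23, adjusted p = 0.025). It did not pass without replicate 2, 4, 5 or 6 (adjusted p 0.0711, 0.0744, 0.0525 and 0.0841), nor relative to unscaled totals (0.23, adjusted p = 0.493). It also missed the threshold with a term for high opposite-strand counts (adjusted p = 0.0542) and in the libraries free of them (adjusted p = 0.127). In cell wall loosening 3 of 5 fell and none rose (median -1.62), with XTH4, a xyloglucan transglycosylase, at -2.50 (SE 0.38, adjusted p = 8.1e-06). Among 7 aquaporins 4 rose and none fell (median 0.75), and PIP2;7, a water channel of the plasma membrane, rose from 47.4, 51.1 and 57.4 to 153, 194 and 242 CPM.

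In the circadian clock 3 of 12 tested genes rose and 5 fell (median -0.07), beside 18.7% and 20.12% of all tested genes. Without replicate 2, 3 fell, and in the libraries free of high opposite-strand counts 1 rose and 2 fell. PRR9, a morning repressor, rose from 0, 1.48 and 3.94 to 8.48, 14.1 and 20.2 CPM (3.02, SE 0.59, adjusted p = 0.00019), and CHE, a regulator of CCA1, fell by 1.07 (SE 0.31, adjusted p = 0.0067). GI had 97.3, 109 and 129 CPM and then 75.7, 89.5 and 129 CPM (-0.23, SE 0.18, adjusted p = 0.31). Of 8 tested salicylic acid and defence genes 2 fell, ACD6 and EDS1, a lipase-like regulator of immunity (-1.32, SE 0.29, adjusted p = 0.00064), and none rose (median -0.37), beside 20.12% of all tested genes that fell. None of 7 tested light, auxin and growth regulators passed the edgeR test, 0 had an unadjusted p under 0.05, 0 passed with DESeq2, and PIF4, which drives warm-temperature growth, gave -0.54 (SE 0.29, adjusted p = 0.14).

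Ribosomal protein genes gave few calls. Of 33 cytosolic ribosomal protein genes 2 rose and 4 fell (median 0.05), beside 18.7% and 20.12% of all tested genes. Without replicate 5, 2 fell. The share of counts held by the 33 genes was 0.458% to 0.775% at 21 °C and 0.363% to 0.696% at 37 °C (exact permutation p = 0.0584), with replicate 7 the highest in both groups. Among 9 commonly used reference genes 1 rose and 2 fell (median -0.24), beside 38.9% of all tested genes called, and 5 fell relative to unscaled totals. ACT2, an actin, fell from 316, 371 and 488 to 202, 225 and 262 CPM, GAPC2, a glycolytic enzyme, fell by 0.66 (SE 0.15, adjusted p = 0.00085), and YLS8, a splicing protein, rose from 37.9, 48.1 and 69.1 to 99.3, 114 and 141 CPM.

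Splicing factors of the SR family, which bind exons and guide splice site choice, divided by gene. Of 18 tested 7 rose and 2 fell (median 0.10), beside 18.7% and 20.12% of all tested genes. Without replicate 1, 2 or 5, 1 fell. SR45A rose from 15.2, 19.5 and 32.2 to 498, 576 and 632 CPM, a log2 fold change of 4.73 (SE 0.21, adjusted p = 1.6e-16). SR30 rose from 25, 29.8 and 37.4 to 293, 321 and 414 CPM and SCL33 from 40.1, 47.4 and 94.8 to 244, 283 and 301 CPM. RS40 (uncertain) fell from 92.6, 98.6 and 155 to 31.7, 46.4 and 71 CPM (-1.17, SE 0.21, adjusted p = 6.6e-05), whereas the founding member SR34 gave -0.42 (SE 0.20, adjusted p = 0.11).

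Of 16 tested genes of THO and mRNA export 6 rose and 3 fell (median 0.29), beside 18.7% and 20.12% of all tested genes. Without replicate 2, 1 fell. The number that rose was 1 relative to unscaled totals and 2 in the libraries free of high opposite-strand counts. AT1G66260 (uncertain), annotated as an RNA-binding family protein and listed as an export adaptor, rose from 111, 167 and 185 to 316, 382 and 449.8 CPM (1.26, SE 0.17, adjusted p = 7.4e-07). UAP56A (uncertain), an RNA helicase that loads adaptors, rose by 0.88 (SE 0.20, adjusted p = 0.00085), but did not pass relative to unscaled totals (0.47, adjusted p = 0.0918) or in the libraries free of high opposite-strand counts (0.66, adjusted p = 0.0529). Of the other THO subunits HPR1 fell from 13.2, 23 and 42.6 to 2.65, 7.49 and 15.1 CPM (-1.63, SE 0.42, adjusted p = 0.003), but did not pass in the libraries free of high opposite-strand counts (adjusted p = 0.117). THO2 fell by 0.75 (SE 0.23, adjusted p = 0.0097), and did not pass without replicate 2 (adjusted p = 0.0764). TEX1 (uncertain) gave 0.39 (SE 0.49, adjusted p = 0.55).

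Genes were also grouped by introns. Of 1099 tested genes with no intron 19.6% rose and 24.02% fell, of 3112 with 1 to 3 introns 21.9% rose and 19.5% fell, and of 5301 with more than 3 introns 16.7% rose and 19.7% fell. Genes called and at least 8 times higher made up 3.00%, 2.31% and 0.9998% of these classes. Median transcript length was 1481, 1509 and 2068 bases, and its part in these shares was not tested.

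RNA from nuclei was followed with 312 genes at least 32 times higher in Col-0 nuclei than in Col-0 cytoplasm. They summed to 834, 1215 and 1625 CPM in tho5ab cytoplasm at 21 °C and 819.6, 1075 and 1597 CPM at 37 °C (exact permutation p = 0.764), and the groups overlapped. In tho5ab nuclei the sum was 26109 to 33297 CPM at 21 °C and 16522 to 19225 CPM at 37 °C. In Col-0 cytoplasm it was 563 to 906 CPM at 21 °C, a group used with Col-0 nuclei (39182 to 45585 CPM) to choose the genes, and 1144 to 1739 CPM at 37 °C. These differences were not tested.

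Most of the response was shared in direction with Col-0. In one fit of the 24 cytoplasmic libraries 4622 of 11737 genes (39.4%) were called for heat in tho5ab and 4888 (41.6%) in Col-0. Of these 3317 were called in both, 71.8% of the tho5ab calls and 67.9% of the Col-0 calls, and 3307 of them had the same sign. The genotypes do not share control libraries. Across genes, which are not independent replicates, the log2 fold changes had a Pearson correlation of 0.856, given as a description.

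The size of the response differed between genotypes for 124 genes (1.06%), by the genotype by heat interaction, with 92 higher and 32 lower in tho5ab. This count varied with single replicates and with the tool: it was 44, 55, 62, 48, 31 and 60 without replicates 1 to 6 in turn, 154 without replicate 7, and 262 with DESeq2. With all 48 libraries it was 723, of which 330 were higher and 393 lower, so the more frequent direction turned. Of the 124, 42 rose by sign in both genotypes, of which 32 rose more in tho5ab, and 51 fell in both, of which 42 fell less in tho5ab. Another 18 went up in tho5ab and down in Col-0, and 13 the reverse.

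Chaperones were frequent among them: 10 of 23 tested HSP70, HSP90 and HSP100 genes had a more positive response in tho5ab, beside 92 of 11737 (0.784%) of all genes, and the count was 7 to 12 with any one replicate number left out. Levels from here on are scaled over the 24 libraries, so they differ slightly from those above. HSC70-1 reached 6849 to 10816 CPM in heated tho5ab and 3109 to 3797 CPM in heated Col-0, with log2 fold changes of 1.72 (SE 0.13) and 0.59 (SE 0.13) and a difference of 1.13 (SE 0.19, adjusted p = 0.00059). HSP90.3 reached 1948 to 3433 and 705 to 1063 CPM, a difference in log2 response of 1.62 (SE 0.20, adjusted p = 3.9e-06). HSP90.1 reached 23856 to 49100.1 and 16600.4 to 20433 CPM, a difference of 1.45 (SE 0.26, adjusted p = 0.002). Hsp70-2, a cytosolic HSP70 with low counts, reached 206 to 456 and 41.5 to 64.6 CPM, a difference of 2.82 (SE 0.35, adjusted p = 4.8e-06). In these 4 genes the heated genotypes did not overlap, and each difference passed with any one replicate number left out. The 4 were picked from genes already past the threshold, so their separation adds no support. Its share over all genes was not counted.

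HSP101 reached 19361 to 31672 CPM in heated tho5ab and 8130.4 to 10876 CPM in heated Col-0, a difference of 1.76 (SE 0.33, adjusted p = 0.0038), and narrowly missed the threshold without replicate 1 (1.41 to 2.08 over the left-out replicates, adjusted p up to 0.0571). Small heat shock genes passed in 3 of 18, AT1G07400, HSP21 and AT5G51440, and each lost the call for 5 of the 7 replicate numbers left out in turn. HSP21 gave 3.16 (SE 0.82, adjusted p = 0.045) and 2.23 without replicate 5 (adjusted p = 0.376). It had 2 counts in tho5ab at 21 °C, in 1 library, so the size of its difference depends on counts near 0. As a share of counts, small heat shock proteins reached 14.2% to 18.3% in heated tho5ab against 10.8% to 12.9% in heated Col-0, and the HSP70, HSP90 and HSP100 genes 9.96% to 12.7% against 7.07% to 8.35%. Both pairs of groups were apart (exact permutation p = 0.00216, the smallest possible, compared after the values were seen).

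**Figure D5:**
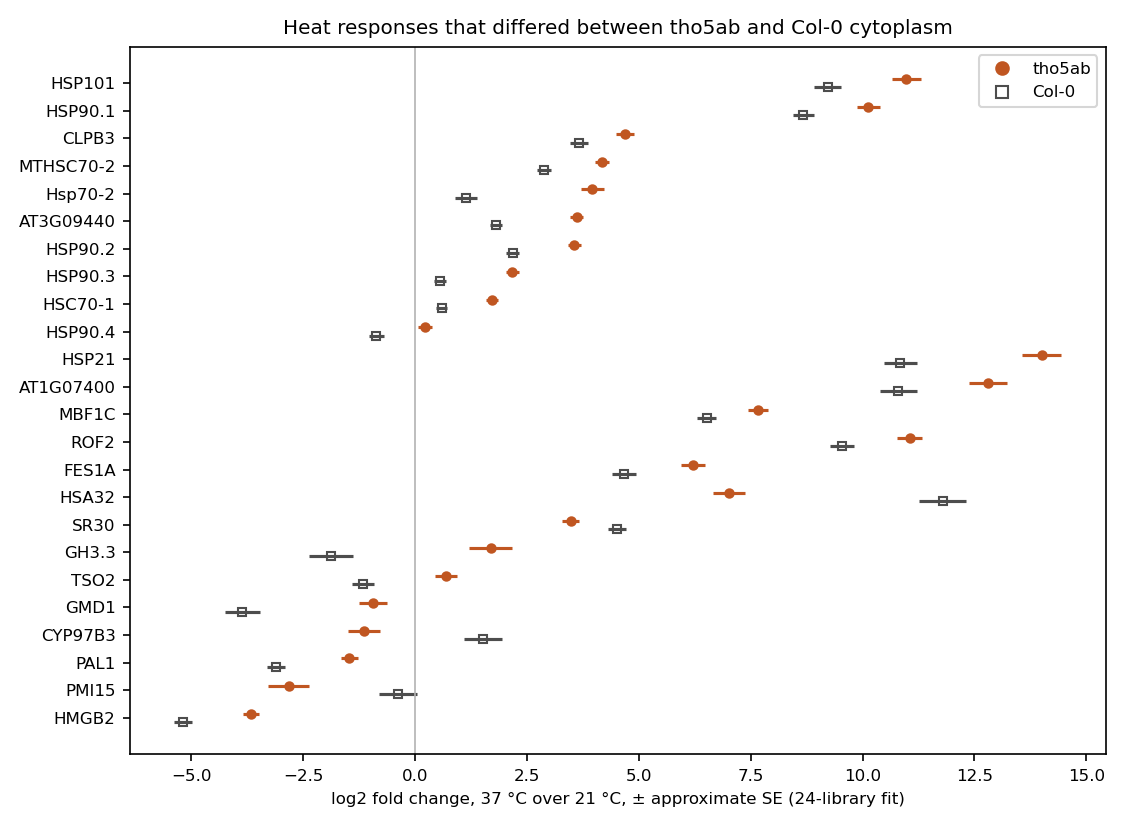
Log2 fold change with heat (37 °C over 21 °C, with approximate SE) in tho5ab (filled circles) and Col-0 (open squares) for 24 genes whose response differed between genotypes in the fit of 24 cytoplasmic libraries. HSP90.4, GH3.3 and TSO2 lie on opposite sides of 0, as does CYP97B3, and HSA32 and SR30 have lower values in tho5ab, differences that did not pass for 2 and 6 of the 7 replicate numbers left out in turn.

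Beyond chaperones, differences in both directions occurred. HSA32 had 0 counts in Col-0 at 21 °C, so the size of its difference depends on the prior count of the fit, and it reached 176 to 229 CPM in heated tho5ab and 259 to 299 CPM in heated Col-0. Its difference did not pass without replicate 2 or 6 (adjusted p up to 0.111). PAL1 fell by less in tho5ab (-1.48, SE 0.19) than in Col-0 (-3.11, SE 0.21), and HMGB2 likewise (-3.67, SE 0.18, against -5.19, SE 0.20), and both passed with any replicate number left out. GH3.3, which conjugates auxin to amino acids, had a log2 fold change of 1.69 (SE 0.48) in tho5ab and -1.88 (SE 0.50) in Col-0. The difference was 3.57 (SE 0.69, adjusted p = 0.0049). The change of GH3.3 in tho5ab alone did not pass without replicate 7 (adjusted p = 0.101) or relative to unscaled totals (adjusted p = 0.0517). Nor did it pass in the libraries free of high opposite-strand counts (adjusted p = 0.0795). GMD1 (uncertain), a mannose dehydratase, was at 15.5 to 42 CPM in heated tho5ab and 0 to 6.18 CPM in heated Col-0, a difference of 2.93 (SE 0.50, adjusted p = 0.0012).

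CYP97B3, a cytochrome P450, had a mean of 41 CPM at 21 °C and 18.19 at 37 °C in tho5ab, and 3.7 and 10.8 in Col-0, a difference of -2.67 (SE 0.55, adjusted p = 0.011), which missed the threshold without replicate 1 (adjusted p = 0.0571). PMI15, CIL (uncertain), MYB12 and CYP707A2 completed the 10 named for this contrast with differences of -2.45, -2.04, 3.79 and -5.65, and each lost the call without at least 5 of the 7 replicate numbers. EGY3 (uncertain), a chloroplast protease-like protein, gave 3.38 (SE 0.71, adjusted p = 0.011), and missed the threshold without replicate 1 or 4. CYP707A2 had 0 counts in heated tho5ab, so its value depends on the prior count as well.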

How the data were processed

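RNA-seq counts were used for 48 libraries of Arabidopsis thaliana, 6 for each of 8 combinations of genotype, fraction and temperature. Per the labels' protocols, RNA had spike-ins added and the NuGEN Universal Plus kit was used for libraries, with depletion of plant rRNA. Per the submitters' processing notes, STAR 2.7.8a, Picard, UMI-tools, featureCounts and the TAIR10 genome were used; settings, including strand, are not given in the sources used here. The deposited table holds raw read counts per gene, which is the authors' unit with no normalization.

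The main fit used the 12 tho5ab cytoplasmic libraries: edgeR 4.0.16 (R 4.3.3), filterByExpr, TMM scaling, the quasi-likelihood test and Benjamini-Hochberg adjustment over all 9512 tested genes at 0.05. SE values are the log2 fold change divided by the square root of F. A fit of the 24 cytoplasmic libraries gave the genotype by heat interaction. For the bounds on fold changes only, and in no fit, a tho5ab group with 0 counts was given a floor of 3 counts over the group. Intervals and floors cover counting error only. Shares were compared with exact permutation tests in scipy 1.17.1, two-sided. Alternatives used DESeq2 1.42.0, other scalings, filters and libraries, and each replicate number left out. One, restricted to genes with no opposite-strand overlap, was chosen after seeing the data. Near-identical copies were found with blastn 2.17.0 at 95% identity. Gene names, coordinates and sequences are from RefSeq TAIR10.1, since the table gives none.

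Genes named in the text were the 15 with the highest and lowest log2 fold change among those past the threshold, changed by at least 1 on the log2 scale, with a mean of at least 8 CPM in either group, a symbol and groups that do not overlap, then the 10 most abundant at each temperature, the 5 at each end of the interaction and up to 4 at each end of each list. Others were named after their values were seen. The members and lists were chosen with earlier results of these data known. In simulated counts the fit recovered 93.3% of 4-fold and 35.8% of 2-fold changes and called 0.0577% of unchanged genes, among 8854 genes tested. Changes were placed only in genes above a minimum level, and the shares are over the 90 and 95 changed genes that passed the filter. Far fewer genes were changed than were called in the data, and high opposite-strand counts were not simulated. These rates therefore may not hold for the real comparison.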

Additional observations from a re-analysis of the deposited data

Results flagged for a closer look

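In 34 of 286 groups of 6 libraries (11.9%) 1 library lay far from the other 5, and in 13 of the 34 it was replicate 7. A chance rate of about 1 in 20 holds only for normally distributed values, which CPM near 0 are not. Groups with 0 counts throughout are among the 286 and could not stand out, so no excess over chance is read from this count. Replicate 1 at 21 °C was far above the rest for HSFA7A at 10.7 CPM (nearest 2.34). Replicate 2 at 21 °C was far above the rest for HSP21 at 1.58 CPM (nearest 0), HSP90.1 at 49.7 CPM (nearest 34.3), RS40 at 155 CPM (nearest 110) and BGLU21 at 31.6 CPM (nearest 15.2). Replicate 4 at 21 °C was far above the rest for HSP17.4 at 13.9 CPM (nearest 4.1), HSP70B at 11.3 CPM (nearest 4.6), HOP3 at 28.7 CPM (nearest 10.5), HSFA7B at 2.61 CPM (nearest 0), SCL33 at 94.8 CPM (nearest 50.5) and LDOX at 42.6 CPM (nearest 24.6). Replicate 5 at 21 °C was far above the rest for HSFA2 at 1.31 CPM (nearest 0), LHB1B2 at 35150 CPM (nearest 23540) and RBCS1A at 11980 CPM (nearest 6225). Replicate 6 at 21 °C was far above the rest for AT2G29500 at 7.37 CPM (nearest 2.37). Replicate 7 at 21 °C was far above the rest for ACD6 at 114 CPM (nearest 40.2). For replicate 7 at 21 °C values lay far below the rest in GAPB at 784 CPM (nearest 1007) and P5CS1 at 122 CPM (nearest 203). Replicate 1 at 37 °C was far above the rest for COR15B at 58.3 CPM (nearest 25.2). Replicate 4 at 37 °C was far above the rest for IGMT4 at 67.7 CPM (nearest 37.5), EXPA8 at 9.29 CPM (nearest 1.44) and PRP1 at 5.97 CPM (nearest 2.16). Replicate 5 at 37 °C was far above the rest for HSP17.6II at 7474 CPM (nearest 6480). Replicate 7 at 37 °C was far above the rest for RPL18 at 252 CPM (nearest 168) and ACD6 at 4.38 CPM (nearest 0.663). For replicate 7 at 37 °C values lay far below the rest in HSP23.6-MITO at 9723 CPM (nearest 13720), AT1G07400 at 24030 CPM (nearest 31450), EGY3 at 372 CPM (nearest 937), HSP70 at 16320 CPM (nearest 26250) and CAT2 at 1134 CPM (nearest 3073). As percent of counts, Calvin cycle stood at 3.91% in replicate 5 at 21 °C (nearest 2.94%), cytosolic ribosomal proteins stood at 0.696% in replicate 7 at 37 °C (nearest 0.42%), 10 most abundant genes of each library stood at 26.6% in replicate 7 at 37 °C (nearest 30.6%), 100 most abundant genes of each library stood at 49.6% in replicate 7 at 37 °C (nearest 57.3%). The cause was not tested.

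The heat response differed between tho5ab and Col-0 for 32 named genes and list members, by the interaction in the fit of 24 libraries, on the log2 scale. It was more positive in tho5ab for MYB12 by 3.79, GH3.3 by 3.57, EGY3 by 3.38, HSP21 by 3.16, GMD1 by 2.93, Hsp70-2 by 2.82, AT1G07400 by 1.998, TSO2 by 1.84. It was also more positive, by smaller amounts, for AT3G09440 by 1.80, HSP101 by 1.76, PAL1 by 1.63, HSP90.3 by 1.62, FES1A by 1.54, HMGB2 by 1.52, ROF2 by 1.51, HSP90.1 by 1.45. The remaining genes in this direction were HSP90.2 by 1.38, AT5G51440 by 1.34, AT3G10020 by 1.33, MTHSC70-2 by 1.31, GolS1 by 1.19, MBF1C by 1.15, HSC70-1 by 1.13, HSP90.4 by 1.09, CLPB3 by 1.02, ROF1 by 0.79. It was more negative in tho5ab for CYP707A2 (-5.65), HSA32 (-4.77), CYP97B3 (-2.67), PMI15 (-2.45), CIL (-2.04), SR30 (-1.04). The calls for HSP90.1, AT3G10020, MTHSC70-2, Hsp70-2, AT3G09440, HSP90.2, HSP90.3, HSC70-1, GH3.3, TSO2, GMD1, PAL1 and HMGB2 held with any one replicate number left out.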

How the results depend on the processing

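Of 135 named genes 129 had a heat change under every setting tried, of which 92 kept its call and direction, and none of the 135 reversed. Of the 10 genes named for the interaction, GH3.3 and GMD1 kept that call and the others lost it under at least 1 setting. Fitting all 48 libraries gave 7574 heat calls, 3983 higher and 3591 lower, against 3696. Without scaling beyond library totals 896 were higher and 3207 lower, a share of higher genes of 21.8% against 48.2%. The interaction counted 723 genes with 48 libraries (330 higher, 393 lower) and 262 with DESeq2 (173 and 89), and 31 to 154 with a replicate number left out (22 to 115 higher, 9 to 39 lower). The cause was not tested. Among the 6804 tested genes with no overlap on the opposite strand, a restriction chosen after seeing the data, 2634 (38.7%) were called. Totals of 1025185 to 2091811 counts per library limit what low genes can show.

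Of 630 counts of list members under alternatives 546 lay within 1.5 times the value reported. Without scaling the members lower were 3 co-chaperones, 3 heat shock factors, 31 photosystem, 10 ribosomal, 5 cell division, 8 SR, 1 light and auxin, 1 aquaporin and 5 reference genes, and those higher were 0 photosystem, 0 ribosomal, 0 cell division, 1 clock and 1 THO and export gene. With no filter 2 heat shock factors, 11 flavonoid, 8 salicylic acid and 1 light and auxin gene were lower, and 1 flavonoid and 1 cell wall gene higher. With 24 libraries 1 co-chaperone and 5 salicylic acid genes were lower, and 2 photosystem, 5 ribosomal, 1 flavonoid and 1 cell wall gene higher. With 48 libraries those higher were 15 unfolded protein response, 5 photosystem, 1 Calvin cycle, 8 ribosomal, 1 flavonoid, 7 clock, 1 salicylic acid, 1 glucosinolate, 2 light and auxin and 1 cell wall gene, and those lower 2 heat shock factors, 12 flavonoid, 9 salicylic acid, 1 light and auxin and 4 reference genes. DESeq2 called 2 heat shock factors lower and 1 cell wall gene higher, and its size factors 1 cell wall gene higher. With a term for high opposite-strand counts 2 heat shock factors were lower, and 4 ribosomal and 0 cell division genes higher. With only libraries low in such counts 0 photosystem, 1 ribosomal, 1 flavonoid, 0 cell division, 1 clock, 2 THO and export and 3 abscisic acid genes were higher, and 10 photosystem, 1 ribosomal, 2 clock and 3 glucosinolate genes lower.

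With a replicate number left out the members lower ranged over 0 to 1 co-chaperones, 10 to 16 photosystem, 2 to 4 ribosomal, 1 to 4 cell division, 3 to 5 clock, 1 to 3 SR, 1 to 3 THO and export, 3 to 6 glucosinolate and 0 to 1 light and auxin genes. Members higher ranged over 0 to 2 photosystem, 1 to 3 ribosomal, 0 to 1 cell division, 0 to 1 glucosinolate and 0 to 1 cell wall genes.

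With GAANNTTC alone promoters matched in 11.6% of all genes, 11.4% of tested genes, 14.1% of those higher, 9.98% of those lower, 11.1% of the rest, 26.6% and 30.6% of those at least 8 and 64 times higher and 11.9% of those at least 8 times lower. Among lists it matched 26.3% of small heat shock proteins, 20.8% of HSP70, HSP90 and HSP100 genes, 27.3% of co-chaperones and 10.5% of unfolded protein response genes.

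Deviations of same-numbered libraries had correlations of 0.0257, 0.0228, 0.0183, -0.0695, -0.00216 and, for replicate 7, 0.258, and only replicate 7 correlated best with its own number. Replicates 1, 4, 5 and 6 had high opposite-strand counts at only 1 of the temperatures. Those high at 21 °C, 1, 4 and 6, correlated best with replicate 5, which was high at 37 °C. The check therefore cannot decide whether same-numbered libraries are paired. With a replicate block 3738 genes were called, and 1 co-chaperone was lower and 1 cell wall gene higher.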
